A study of Mus musculus with 6 samples.

Results

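The 7 genes described here are Dppa2, Dppa3, Dppa4 and Dppa5a of the developmental pluripotency-associated (Dppa) family, together with Fbxo15, Tdh and Pecam1, which are used as markers of mouse embryonic stem cells (mESCs). They were taken by gene symbol from the 28584 symbols of the deposited expression table. All 7 were found, and all 7 were among the 18556 genes that reached 1 TPM in at least 2 libraries and were tested. TPM, a transcript abundance, counts reads per unit of transcript length on a common library total, so that levels of different genes can be compared. RNA was sequenced from mESCs of 1 line derived from C57BL/6 × 129S6 blastocysts, which had grown on mitomycin C-inactivated mouse embryonic fibroblast feeders in serum and LIF for a run of passages and then in 1 of 3 media for 10 passages. All 3 media shared the same serum-containing basic medium. It was used alone for -LIF-ESCs, with 1000 U/mL LIF for LIF-ESCs and with 10 ng/mL OSM for OSM-ESCs, and each group had 2 libraries. LIF and OSM are related cytokines that signal through the receptor subunit gp130, and the comparison asks how far OSM can take the place of LIF.

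The Dppa genes are named for expression in pluripotent cells and are not 1 protein family. Dppa2 and Dppa4 encode SAP-domain proteins that bind DNA as partners and act on genes of the early embryo, Dppa3 (Stella) encodes a maternal protein that counters DNA methylation, and Dppa5a encodes a KH-domain RNA-binding protein. Fbxo15 is an F-box gene driven by Oct4 and Sox2, Tdh makes the threonine dehydrogenase on which mESCs depend, and Pecam1 is an adhesion receptor found on mESCs and on endothelial cells.

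The reads recovered from the TPM values came to between 20712977 and 28994422 per library, and each of the 7 genes had between 306 and 21919 reads in a library. Replicates differed by more than sampling noise, with chi-square values that averaged 2.03 to 3.49 a gene where sampling alone would give 1. Genes that define mESCs (Pou5f1, Sox2, Nanog, Sall4, Lin28a and Esrrb) were detected in all 6 libraries, with summed levels of 1634 to 1651 TPM in -LIF-ESCs, 2675 to 2784 TPM in LIF-ESCs and 2625 to 2666 TPM in OSM-ESCs. Of these 6 genes, 5 were higher with either cytokine (adjusted p under 0.05), and Nanog was lower (log2 fold changes -0.58 with LIF and -0.73 with OSM, adjusted p = 0.000144 and 6.37e-05 by limma with Benjamini-Hochberg adjustment). The paper, in contrast, lists Nanog among genes higher with either cytokine in its RNA-seq, and reports its protein as strongly reduced in -LIF-ESCs. Fibroblast markers moved with the media as well. All 9 tested of 10 listed were higher with LIF and with OSM (8 with LIF once the libraries were rescaled by their median ratio, Pdgfrb no longer passing), and the 10 summed to 41.7 to 46.2 TPM in -LIF-ESCs, 231 to 233 TPM in LIF-ESCs and 331 to 334 TPM in OSM-ESCs. Fap was listed at 0 in -LIF-ESCs. The part of these markers in the results for the 7 genes was not tested. In bulk RNA, fewer cells of a type and less RNA per cell cannot be told apart.

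On the deposited scale, the levels of Dppa2, Dppa4, Tdh, Fbxo15 and Pecam1 were lower without LIF or OSM and that of Dppa3 was higher, while Dppa5a did not pass the test. After rescaling, the differences of Fbxo15 and Pecam1 from OSM-ESCs no longer passed. Set against -LIF-ESCs, 5 of the 7 genes rose and 1 fell with LIF at the 0.05 limit on the adjusted p, where 68.1% of all tested genes passed (42.2% higher and 25.9% lower). In OSM-ESCs the same test also gave 5 higher and 1 lower, beside 68.3% of all genes (42.9% higher and 25.4% lower). With a log2 fold change of at least 1 required in addition, 3 of the 7 were called in LIF-ESCs (Dppa2 and Dppa4 higher, Dppa3 lower) beside 21.4% of all genes (13.3% higher and 8.09% lower), and 2 were called in OSM-ESCs (Dppa2 higher, Dppa3 lower) beside 22% of all genes (14.2% higher and 7.86% lower). For each of the 7 genes the -LIF-ESCs libraries did not overlap those of LIF-ESCs or OSM-ESCs, a separation seen for 84.2% and 83.9% of all tested genes. The median log2 fold change of the 7 genes was 0.53 with LIF and 0.26 with OSM, and that of all genes was 0.17 and 0.18.

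The shift of all genes away from 0 matters for the smaller differences. After rescaling of the libraries by the median ratio, it was 0.01 in both comparisons. Of all called genes, 2470 of 3972 were higher with LIF on the deposited scale and 1945 of 3855 after rescaling. With OSM, the corresponding counts were 2630 of 4089 and 2059 of 3966. At an adjusted p under 0.05 alone, 5 of the 7 genes were then higher and 2 lower with LIF, beside 12562 of 18571 genes in either direction. With OSM, 3 were higher (Dppa2, Dppa4 and Tdh) and 2 lower (Dppa3 and Dppa5a), beside 12539 of 18571 genes. With the limit on the fold change as well, 2 of the 7 genes were called in each comparison, beside 20.8% of all genes with LIF and 21.4% with OSM. The rescaled value is therefore given for each gene, and the rescaled count is given for gene groups in which it differed.

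**Figure D1:**
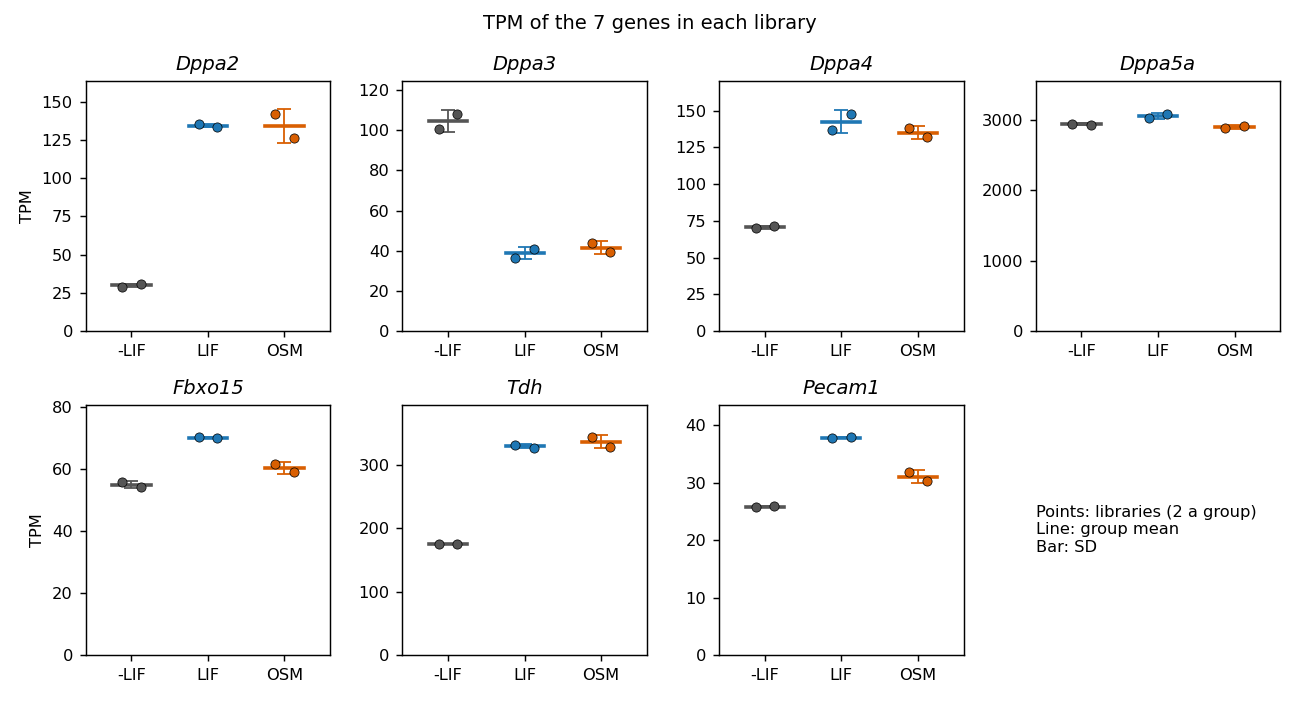
Level in TPM (vertical axes, each starting at 0) of each of the 7 genes in the 2 libraries of -LIF-ESCs, LIF-ESCs and OSM-ESCs, with points for libraries, lines for group means and bars for the SD. Dppa2, Dppa4 and Tdh were lowest in -LIF-ESCs and overlapped between LIF-ESCs and OSM-ESCs, Dppa3 was highest in -LIF-ESCs, and Pecam1 and Fbxo15 in OSM-ESCs lay between the other groups.

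Dppa2 (ENSMUSG00000072419, chromosome 16, 48303908 to 48319723, plus strand, GRCm38) showed the largest change of the 7 genes. Levels were 29.2 and 30.7 TPM without a cytokine, 135 and 134 TPM under LIF and 142 and 126 TPM under OSM. Both cytokine groups were far above -LIF-ESCs and overlapped each other. The mean rose from 29.9 ± 1.07 TPM (SD, n = 2) in -LIF-ESCs to 134 ± 1.17 TPM in LIF-ESCs, with a log2 fold change of 2.13 (SE 0.07, adjusted p = 1.08e-05, limma), and to 134 ± 11.3 TPM in OSM-ESCs, again with 2.13 (SE 0.07, adjusted p = 1.03e-05). After rescaling, these were 1.96 and 1.94.

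Dppa4 (ENSMUSG00000058550, chromosome 16, 48283733 to 48294237, plus strand), the partner of Dppa2, lies 9.67 kb from it on the same strand. The -LIF-ESCs libraries held 69.9 and 71.3 TPM, the LIF-ESCs libraries 137 and 148 TPM and the OSM-ESCs libraries 138 and 132 TPM. Here too the cytokine groups overlapped each other and lay above -LIF-ESCs. The log2 fold change was 1.00 with LIF (SE 0.05, adjusted p = 4.42e-05) and 0.93 with OSM (SE 0.05, adjusted p = 5.48e-05), and both passed under every alternative run. The LIF value was just past the limit of 1 used for a call, and it was under that limit without -LIF-ESCs replicate 1 (0.99), without LIF-ESCs replicate 2 (0.95), in limma's voom on the recovered reads (0.88) and after rescaling (0.83, with 0.74 for OSM). Set directly against LIF-ESCs, OSM-ESCs did not pass the test for Dppa4 (log2 difference -0.08, adjusted p = 0.551).

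Dppa2 rose by more than Dppa4. With LIF the 95% confidence interval of the log2 fold change was 1.97 to 2.30 for Dppa2 and 0.87 to 1.13 for Dppa4. Dppa2 TPM divided by Dppa4 TPM, a ratio that no scaling of a whole library can change, was 0.417 and 0.430 without a cytokine, 0.988 and 0.902 under LIF and 1.03 and 0.955 under OSM. In TPM the pair was thus at near equal levels with either cytokine, while Dppa4 exceeded Dppa2 by 2.33 to 2.40 times without them. The ratio depends on the gene lengths behind the TPM. For Dppa2 and Dppa4, lengths of 1948 and 1534 bases gave whole reads, where the annotation GENCODE M21 has 2447 and 1662. The ratios of LIF-ESCs and OSM-ESCs overlapped, and those of -LIF-ESCs stood apart. The ratios are given without a test.

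**Figure D2:**
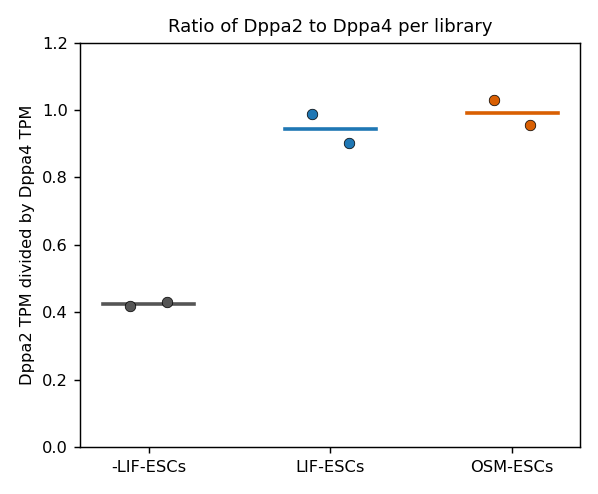
Dppa2 TPM divided by Dppa4 TPM (vertical axis, no unit) in each library, by medium, with lines for group means. The 2 libraries of -LIF-ESCs were at 0.417 and 0.430, and the other 4 libraries lay between 0.902 and 1.03.

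Genes of the 2-cell embryo, on which Dppa2 and Dppa4 are known to act through Dux, were near the detection limit. Of 17 listed genes (the Zscan4, Tcstv, Dux and Usp17l families, Zfp352 and Tmem92), 15 were in the table and 0 reached the level required for a test. Their reads summed to 142 and 120 without a cytokine, to 34 and 30 under LIF and to 22 and 15 under OSM. The sums were highest where Dppa2 and Dppa4 were lowest. Many of these genes are near-identical copies between which reads cannot be assigned with certainty, and the single genes had at most 21 reads in a library. By qPCR the paper reports the opposite direction, with Zscan4, Tcstv1 and Tcstv3 strongly reduced without a cytokine. It found no significant difference in them between OSM-ESCs and LIF-ESCs. The next tested genes along the chromosome did not share the pattern of the pair: Morc1, a germline gene, fell (log2 fold changes -0.46 and -0.75, adjusted p = 0.000988 and 0.000157), and Dzip3 rose by less (0.45 and 0.39, adjusted p = 0.00288 and 0.00534).

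Dppa3 (ENSMUSG00000046323, chromosome 6, 122626410 to 122630272, plus strand) was the 1 gene of the 7 that fell with the cytokines on the deposited scale. Levels were 101 and 108 TPM without a cytokine, 36.6 and 40.8 TPM under LIF and 44.1 and 39.2 TPM under OSM. Every -LIF-ESCs library was above every other library, and the cytokine groups overlapped. The mean was 104 ± 5.43 TPM (SD, n = 2) in -LIF-ESCs, 2.70 times that of LIF-ESCs and 2.51 times that of OSM-ESCs. The log2 fold changes were -1.41 with LIF (SE 0.08, adjusted p = 7.29e-05) and -1.31 with OSM (SE 0.08, adjusted p = 9.22e-05), and they were -1.58 and -1.49 after rescaling. A processed copy on chromosome X, Dppa3-ps, was assigned at most 2 reads in a library. How reads that match both genes were treated is not given, so the part of the copy in the Dppa3 level was not tested.

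The genes around Dppa3 moved in both directions. Gdf3, a growth factor gene 16.3 kb away, rose (log2 fold changes 1.06 with LIF and 1.08 with OSM, adjusted p = 4.05e-05 and 3.65e-05), as did Apobec1, a cytidine deaminase gene 24.0 kb away (1.71 and 1.73, adjusted p = 1.11e-05 and 1.02e-05). Nanog, 77.2 kb away on the other side, fell with Dppa3, as given above. Of the gene models on that side, Gm10224 fell too (-1.24 and -1.21, adjusted p = 0.0335 and 0.0361), and Gm10420 fell with OSM (-0.43, adjusted p = 0.0227) and was at -0.25 with LIF (adjusted p = 0.119, and -0.39 with adjusted p = 0.0278 after rescaling).

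Dppa3 is known to bind Uhrf1 and keep it from chromatin, where it recruits Dnmt1 to copy DNA methylation. All 4 listed genes of this machinery rose in both comparisons, opposite to Dppa3, but after rescaling Dnmt1 did not pass with LIF (0.12, adjusted p = 0.0585) and neither Dnmt1 (0.05, adjusted p = 0.361) nor Uhrf1 (0.02, adjusted p = 0.659) passed with OSM. The log2 fold changes were 0.33 and 0.20 for Uhrf1, 0.29 and 0.23 for Dnmt1, 0.70 and 0.60 for Usp7 and 0.90 and 0.79 for Hells, with adjusted p between 7.1e-05 and 0.00753. Their median was 0.51 with LIF and 0.42 with OSM, against 0.17 and 0.18 for all genes. As Dppa3 also marks primordial germ cells, 8 markers of those cells were examined, and 2 rose and 4 fell with LIF while 1 rose and 4 fell with OSM. Dazl (-1.70 and -2.01), Dnd1 (-1.58 and -1.71), Kit (-1.26 and -1.39) and Tfap2c (-0.55 and -0.50) fell as Dppa3 did, whereas Prdm1, which specifies germ cells, rose (0.80 and 0.73). Ddx4 rose with LIF (0.36, adjusted p = 0.0202, and 0.19 with adjusted p = 0.0939 after rescaling), and its value with OSM was 0.13 (adjusted p = 0.292). Prdm14 and Nanos3 did not pass in either comparison.

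Dppa5a (ENSMUSG00000060461, chromosome 9, 78367052 to 78368177, minus strand) was by far the most abundant of the 7 genes and, on the deposited scale, differed least from -LIF-ESCs in either cytokine group. The -LIF-ESCs libraries held 2949 and 2935 TPM, the LIF-ESCs libraries 3029.6 and 3089.8 TPM and the OSM-ESCs libraries 2882 and 2919 TPM. The libraries of the 3 groups did not overlap, but their means lay within a few percent of each other. The log2 fold change was 0.06 with LIF (95% confidence interval -0.02 to 0.13, adjusted p = 0.136) and -0.02 with OSM (-0.09 to 0.05, adjusted p = 0.563). The sign with LIF depended on the scaling: it was -0.12 (adjusted p = 0.0287) after rescaling, and the OSM value became -0.21 (adjusted p = 0.00359). Either way the change was small beside those of Dppa2 and Dppa3. Dppa5a made up 86.3% to 86.6% of the summed TPM of the 7 genes in -LIF-ESCs and 79.1% to 80.3% in the other 4 libraries, and at most 24 genes had a higher mean TPM in any group.

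Dppa5b and Dppa5c, near-identical copies of Dppa5a, lie 120.9 and 94.5 kb from it on chromosome 9 and are annotated as pseudogenes. Their transcripts in GENCODE M21 (GRCm38) were identical over all 348 bases and matched Dppa5a at 97.0% of 297 aligned bases. A stretch of 60 coding bases of Dppa5a (bases 194 to 253 of the coding sequence) is shown with the same stretch of the copies because it holds 5 of the 9 mismatches in the aligned part. Capitals mark the 5 positions that differ.
Dppa5a: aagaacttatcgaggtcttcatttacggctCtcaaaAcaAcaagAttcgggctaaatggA
Dppa5b: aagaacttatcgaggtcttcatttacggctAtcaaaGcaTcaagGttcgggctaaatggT
Dppa5c: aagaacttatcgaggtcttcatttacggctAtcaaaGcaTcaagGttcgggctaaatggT

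The copies aligned to bases 79 to 377 of the 619 bases of the Dppa5a transcript, and the longest run without a mismatch was 104 bases. Reads that lie within such a run cannot be told apart by sequence. Dppa5a held 98.6% to 99.6% of the TPM of the 3 copies in every library. Dppa5b had 6 and 7 reads without a cytokine, 67 and 12 under LIF and 10 and 14 under OSM, so its LIF-ESCs replicates differed widely. Dppa5c had 50 and 43 reads without a cytokine, 69 and 99 under LIF and 31 and 35 under OSM. In limma Dppa5c rose with LIF (log2 fold change 0.94, adjusted p = 0.00578) and fell with OSM (-0.55, adjusted p = 0.0392). Because the transcripts of Dppa5b and Dppa5c do not differ, how their reads were divided is uncertain.

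Other KH-domain and maternal complex genes moved in both directions. Of 9 listed genes, 6 were found and 3 were tested. Khdc3 fell from a mean of 19.6 TPM in -LIF-ESCs to 2.27 TPM in LIF-ESCs and 0.760 TPM in OSM-ESCs (log2 fold changes -2.66 and -3.54, adjusted p = 7.73e-05 and 3.05e-05). Ooep, the nearest tested neighbour of Dppa5a on the side away from the copies, rose (0.83 and 0.77, adjusted p = 0.000535 and 0.00071). Ddx43, the next gene, rose as well (1.06 and 0.81, adjusted p = 0.000247 and 0.000662), and Tle6 did not pass.

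Fbxo15 (ENSMUSG00000034391, chromosome 18, 84934782 to 84981473, plus strand) was measured at 55.6 and 54.2 TPM without a cytokine, at 70.1 and 70.03 TPM under LIF and at 61.7 and 58.9 TPM under OSM. OSM-ESCs lay between the other groups with no overlap. The rise with LIF was modest, with a log2 fold change of 0.35 (SE 0.04, adjusted p = 0.000837) that was 0.18 after rescaling (adjusted p = 0.00585). The value with OSM was 0.13 (SE 0.04, adjusted p = 0.0308), and this result was not stable. It held in 6 of 15 alternatives and was lost, among others, without either -LIF-ESCs replicate, without either LIF-ESCs replicate and without OSM-ESCs replicate 1 (log2 fold changes 0.10 to 0.15, adjusted p = 0.0618 to 0.136), and the sign turned after rescaling (-0.05, adjusted p = 0.218).

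Oct4 and Sox2, which drive Fbxo15, rose more than Fbxo15 did, with log2 fold changes of 1.09 and 1.12 for Pou5f1 (the Oct4 gene) and 0.71 and 0.54 for Sox2. Of the core genes of the SCF ubiquitin ligase, in which F-box proteins hold the substrate, 4 of 5 listed were tested, 0 rose and 2 fell in each comparison. Skp1a, the adaptor that binds the F-box, fell by 0.92 and 0.99 on the log2 scale, and Rbx1 fell by 0.36 and 0.28, while Cul1 and Nedd8 did not pass. After rescaling, all 4 fell with LIF and 2 with OSM. Fbxo15 overlaps Timm21 on the opposite strand, which had means of 26.9, 33.3 and 31.1 TPM in -LIF-ESCs, LIF-ESCs and OSM-ESCs. The library kit named in the labels is not a strand-marking one, and if it was used, reads from the shared part cannot be told apart.

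Tdh (ENSMUSG00000021953, chromosome 14, 63492347 to 63509092, minus strand) was the second most abundant of the 7 genes in every medium. Levels were 175 and 176 TPM without a cytokine, 332 and 327 TPM under LIF and 344 and 329 TPM under OSM. Replicates were close to each other, and the cytokine groups overlapped. The log2 fold change was 0.91 with LIF (SE 0.03, adjusted p = 1.89e-05) and 0.93 with OSM (SE 0.03, adjusted p = 1.64e-05), or 0.73 and 0.75 after rescaling. On the genome, introns included, Tdh overlaps the antisense gene Gm17232 over 6174 bases. The exons of Tdh total 2615 bases, and how many exon bases the 2 genes share was not measured. Gm17232 had means of 465, 884 and 934 TPM in -LIF-ESCs, LIF-ESCs and OSM-ESCs. The TPM of Tdh divided by that of Gm17232 was 0.349 to 0.381 in every library. If the library kit named in the labels was used, reads from shared exon bases cannot be told apart here either. The strand setting of the counting is not given in the sources used here. Whether the reads counted for Tdh include antisense reads was not tested.

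The enzymes next to Tdh in threonine and glycine use moved in both directions. Of 7 listed genes, 4 rose and 2 fell with LIF, and 3 rose and 2 fell with OSM, while after rescaling 2 rose and 3 fell with LIF and 2 rose and 4 fell with OSM. Shmt2, the mitochondrial serine hydroxymethyltransferase, rose most (log2 fold changes 1.58 and 1.53, adjusted p = 6.17e-06 and 6.05e-06), followed by Amt of the glycine cleavage system (1.09 and 1.07). Gcat, which takes the product of Tdh to glycine, rose by 0.17 and 0.24 on the log2 scale (adjusted p = 0.0172 and 0.00495), close to the median of all genes, and did not pass after rescaling (0.0014 and 0.06, adjusted p = 0.981 and 0.31). Gcsh, another part of the cleavage system, fell by 0.75 and 0.72, and the cytosolic Shmt1 fell by 0.52 and 0.59. Gldc rose with LIF (0.23, adjusted p = 0.0034, and 0.06 with adjusted p = 0.182 after rescaling). With OSM it was at 0.07 (adjusted p = 0.177), and -0.12 after rescaling (adjusted p = 0.0338). Dld did not pass on the deposited scale but fell after rescaling (-0.20 and -0.23, adjusted p = 0.00965 and 0.0067) and in voom (-0.17 and -0.18, adjusted p = 0.00211 and 0.000918). The median of the list was 0.17 with LIF and 0.07 with OSM, and after rescaling it was 0.0014 and -0.12.

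Pecam1 (ENSMUSG00000020717, chromosome 11, 106654217 to 106750628, minus strand) was the least abundant of the 7 genes. The -LIF-ESCs libraries held 25.8 and 25.9 TPM, the LIF-ESCs libraries 37.86 and 37.91 TPM and the OSM-ESCs libraries 31.9 and 30.3 TPM. As for Fbxo15, OSM-ESCs lay between the other groups without overlap. The gene rose with LIF by 0.53 on the log2 scale (SE 0.04, adjusted p = 0.00025) and with OSM by 0.26 (SE 0.04, adjusted p = 0.00412). After rescaling the LIF value was 0.37 (adjusted p = 0.000567), and the OSM value was 0.07 and no longer passed (adjusted p = 0.128).

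Endothelial cells also carry Pecam1, and 13 endothelial markers were in the data. Their sum was 43.3 to 45.2 TPM in -LIF-ESCs, 35.2 to 37.2 TPM in LIF-ESCs and 35.9 to 38.3 TPM in OSM-ESCs, highest where Pecam1 was lowest. Cdh5, Kdr, Tie1, Erg and Icam2 had group means of at most 0.527 TPM, while Egfl7 (12.2 to 14.9 TPM) and Eng (11.5 to 12.8 TPM) stood higher. Vwf, Esam and Cd34 lay at 0.405 to 2.10 TPM and Tek at 3.51 to 3.74 TPM. In -LIF-ESCs, LIF-ESCs and OSM-ESCs the means were 8.52, 2.37 and 3.54 TPM for Flt1 and 3.9, 0.151 and 0.216 TPM for Cldn5. Of the 6 tested, 1 rose and 2 fell in each comparison, and after rescaling 0 rose and 3 fell with LIF. The part of such cells in the level of Pecam1 was not tested. Cldn5 (-2.10 and -2.01) and Flt1 (-1.50 and -1.06) fell, Cd34 rose with OSM (0.52, adjusted p = 0.00955), and Egfl7 was at 0.27 with LIF (adjusted p = 0.05, just under the limit before rounding, and 0.391 after rescaling). The blood cell markers, another source of Pecam1, summed to 41.6 to 44.9 TPM in -LIF-ESCs and 19.4 to 21.2 TPM in the other 4 libraries. Cd68, a macrophage gene, held most of this sum. Of the 4 tested, 1 rose and 2 fell with LIF and 2 rose and 2 fell with OSM, where after rescaling 1 rose. Cd68 (-1.28 and -1.34) and Itga2b (-0.73 and -0.57) fell, Runx1 rose (0.83 and 0.95, adjusted p = 0.00629 and 0.00368), and Itgam rose with OSM (0.49, adjusted p = 0.0365) and was at 0.44 with LIF (adjusted p = 0.0503). The phosphatases that dock on Pecam1 moved apart, Ptpn11 (SHP2) rising by 0.43 and 0.53 and Ptpn6 (SHP1) falling, with -0.79 and -0.91.

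The order of the 7 levels changed with the medium. In -LIF-ESCs it was Dppa5a, Tdh, Dppa3, Dppa4, Fbxo15, Dppa2 and Pecam1, and no neighbours in that order overlapped. In LIF-ESCs and OSM-ESCs it was Dppa5a, Tdh, Dppa4, Dppa2, Fbxo15, Dppa3 and Pecam1. With a cytokine Dppa3 thus stood lower in the order, below Fbxo15, and Dppa2 higher, above Fbxo15. Dppa4 and Dppa2 overlapped in OSM-ESCs and stood at 137 and 135 TPM in their nearest LIF-ESCs libraries, and Dppa3 and Pecam1 overlapped in LIF-ESCs.

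Set directly against LIF, OSM moved 0 of the 7 genes past an adjusted p of 0.05 in limma, beside 0.593% of all tested genes (0.463% higher and 0.129% lower). Likewise 0 were called, beside 0.0808% of all genes (0.0323% higher and 0.0485% lower). At an unadjusted p under 0.05, 3 of the 7 passed, all lower in OSM-ESCs (Pecam1, Fbxo15 and Dppa5a), beside 1818 genes higher and 1020 lower of the 18556 tested. Of the 3, Pecam1 and Fbxo15 also passed an adjusted p under 0.05 in limma's voom on the recovered reads, where 1464 of 19429 genes passed. The libraries of these 3 genes did not overlap, as was seen for 47.1% of all genes. The log2 difference was -0.28 for Pecam1 (95% confidence interval -0.39 to -0.17, adjusted p = 0.0786, and -0.29 with adjusted p = 0.00014 in voom). For Fbxo15 it was -0.21 (-0.32 to -0.11, adjusted p = 0.107, and -0.22 with adjusted p = 0.00318 in voom). Fibroblast markers were also unequal here, with Col1a1 (0.63, adjusted p = 0.0297) and Col1a2 (0.49, adjusted p = 0.03) of the 9 tested higher in OSM-ESCs (7 of 9 in voom), and their part in these differences was not tested. Dppa5a differed by -0.08 (-0.15 to -0.0038, adjusted p = 0.307).

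For the remaining 4 genes the intervals show what size of difference between the cytokines the data allow. The log2 difference of OSM-ESCs from LIF-ESCs was -0.01 for Dppa2 (-0.17 to 0.16, adjusted p = 0.987), -0.08 for Dppa4 (-0.20 to 0.05, adjusted p = 0.551), 0.10 for Dppa3 (-0.11 to 0.31, adjusted p = 0.619) and 0.03 for Tdh (-0.06 to 0.11, adjusted p = 0.745). A difference of up to 1.12 times in Dppa2 and 1.24 times in Dppa3 is within these limits. The median over the 7 genes was -0.08, beside 0.01 for all genes.

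**Figure D3:**
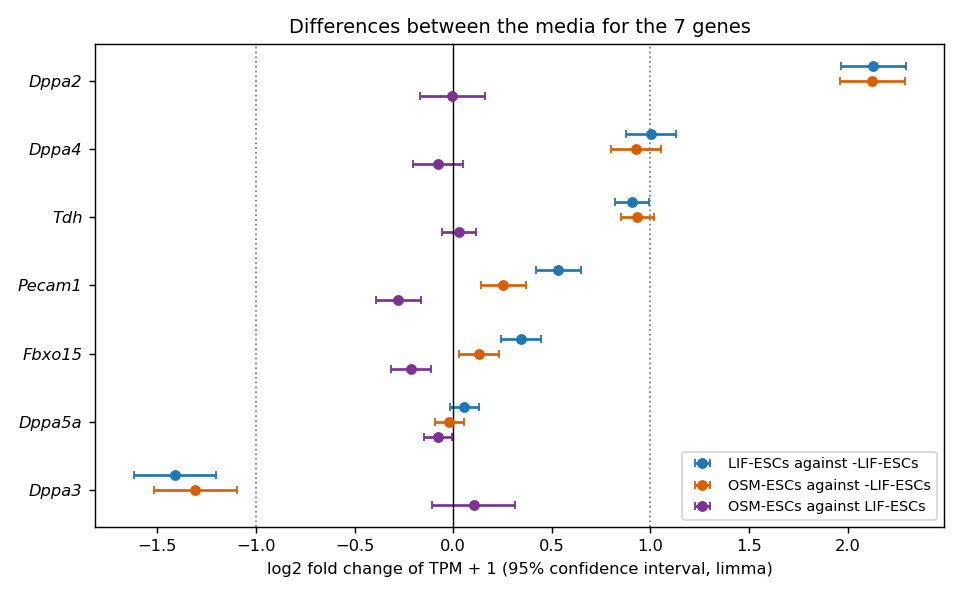
Log2 fold change of TPM + 1 (horizontal axis) with its 95% confidence interval from limma for the 7 genes, in LIF-ESCs and OSM-ESCs against -LIF-ESCs and in OSM-ESCs against LIF-ESCs, with dotted lines at the limits of -1 and 1 used for a call. Dppa2 at 2.13 and Dppa3 at -1.41 and -1.31 stand farthest from 0, and the values of OSM-ESCs against LIF-ESCs lie between -0.28 and 0.10.

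Other markers of mESCs mostly moved as Dppa2, Dppa4 and Tdh did. Of 17 listed genes, 15 rose and 2 fell in both comparisons, with a median log2 fold change of 1.10 with LIF and 1.01 with OSM. After rescaling Zfp42 (Rex1) no longer passed with OSM (0.0011, adjusted p = 0.976), which left 14. The largest with LIF were Nr0b1 (3.90 and 3.62), Dnmt3l (3.20 and 3.11), Tcl1 (1.88 and 1.44) and Mybl2 (1.80 and 1.65). Fut4 and Tex19.1, a germline gene, fell as Dppa3 did (-1.23 and -1.24 for Fut4, -0.58 and -0.62 for Tex19.1). Against LIF-ESCs, 2 of the 17 were lower in OSM-ESCs, Tcl1 (-0.43) and Nr0b1 (-0.28), each at an adjusted p of 0.0463. After rescaling 3 were lower, Tcl1, Tdgf1 and Fgf4, with Nr0b1 at an adjusted p of 0.0564, and in voom 7 were lower and 1 higher.

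**Figure D4:**
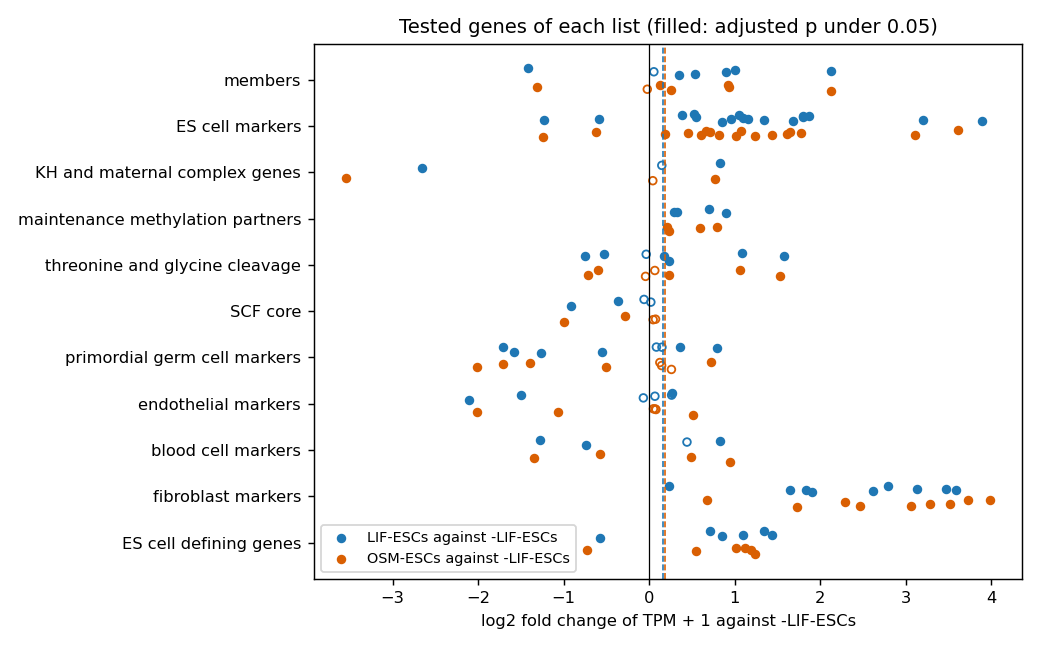
Log2 fold change of TPM + 1 against -LIF-ESCs (horizontal axis) of each tested gene of the gene groups named on the vertical axis ("members" are the 7 genes), for LIF-ESCs and OSM-ESCs, with filled points for an adjusted p under 0.05 and dashed lines at the medians of all genes, 0.17 and 0.18. Of the 17 ES cell markers, 15 lie above 0 and 2 below, and 4 of the 8 primordial germ cell markers lie below -0.5 with Dppa3.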

How the data were processed

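RNA-seq of mESCs was analysed from 6 libraries, 2 in each of 3 groups. The study calls its 2 libraries a group biological replicates. The labels do not say whether these were separate cultures, and p-values measure the spread between them. The extraction text in the labels names ovaries as the RNA source. The source and cell type labels name embryonic stem cells, as the paper does, and these were followed. The authors deposited TPM values. The submitters' processing notes name Trimmomatic, HISAT2, featureCounts and mm10. The annotation, the strand setting, the treatment of reads with several matches and the step from counts to TPM are not given in the sources used here.

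TPM values were compared as log2(TPM + 1), a scale that understates changes of low genes, with limma 3.58.1 in R 4.3.3 (lmFit, eBayes with a trend). The fit took all 6 libraries and the 18556 genes that reached 1 TPM in 2 libraries or more, which left 3 residual degrees of freedom. Benjamini-Hochberg adjustment ran over all of them. A call needed an adjusted p below 0.05 together with a log2 fold change of 1 or more, up or down. The steps were tested on simulated data in which few genes changed and all genes together did not shift. These data differ from that setting, so the simulation does not cover the smaller differences.

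Reads were recovered from TPM with exon lengths of GENCODE M21 (GRCm38). Of 28584 symbols, 28405 (99.4%) were found once, and 26954 (94.9%) of those gave reads whole to within 0.02 in all 6 libraries. For Dppa2, Dppa4 and Fbxo15 the length that gave whole reads was 1948, 1534 and 3359 bases instead of 2447, 1662 and 3360. The reads give the depth and were tested only with limma's voom, which was added as an alternative after the data were seen. Further alternatives changed the pseudocount to 0.1, dropped the filter or set it at 5 TPM, left out the trend of eBayes, fitted only the groups compared, added a replicate block, removed the 37 mitochondrial genes, dropped the limit on the fold change or left out each replicate in turn. Rescaling divided each library by its median ratio to the geometric mean of all libraries, over genes above 0 in each.

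The 7 genes and all gene lists were chosen with earlier results of these data known. Of each list, the text names up to 4 tested genes with the largest change with LIF and those that go against their list, and besides these the tested neighbours on the chromosome. Genes of a list named beyond that rule were chosen after their values were seen. Promoter and protein sequences of the 7 genes were not used here.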

Additional observations from a re-analysis of the deposited data

How the results depend on the processing

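With each replicate left out in turn, the log2 fold change with LIF was 2.10 to 2.17 for Dppa2, -1.49 to -1.33 for Dppa3 and 0.95 to 1.06 for Dppa4. With OSM it was 2.04 to 2.21 for Dppa2 and -1.39 to -1.22 for Dppa3. Leaving a replicate out leaves a group with 1 library, which is assumed to vary like the other groups. With all libraries and no limit on the fold change, 6 of the 7 genes passed with LIF, beside 68.1% of all genes. With OSM 6 passed, beside 68.3% of all genes. The directions of Dppa2, Dppa3, Dppa4 and Tdh against -LIF-ESCs, with an adjusted p under 0.05, held in all 15 alternatives (1.94 to 2.21 for Dppa2, -1.58 to -1.22 for Dppa3, 0.74 to 1.06 for Dppa4 and 0.73 to 0.97 for Tdh). The sign turned for Dppa5a with LIF after rescaling (-0.12) and in voom (-0.0778), and for Fbxo15 with OSM after rescaling (-0.0516) and in voom (-0.0015). Between OSM-ESCs and LIF-ESCs it turned for Dppa2 without LIF-ESCs replicate 1 (0.0037) and without OSM-ESCs replicate 2 (0.0807, the range with each replicate left out being -0.0908 to 0.0807), and for Tdh without OSM-ESCs replicate 1 (-0.0023, in a range of -0.0023 to 0.0599). Rescaling by construction takes off the shift of all genes, and for the other settings the cause was not tested. Over all genes, calls between OSM-ESCs and LIF-ESCs numbered 15, but 63 in voom, 6 with a pseudocount of 0.1, 10 with a filter of 5 TPM or without a trend, 0 to 2 with a replicate left out and 0 with only these groups fitted. With voom, calls with LIF numbered 5855 instead of 3972.

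Replicates of the groups share only a number. The deviations of same-numbered libraries correlated at -0.04, -0.02 and 0.03 between groups, over 18556 genes. With a replicate block, 3, 2 and 0 of the 7 genes were called in the 3 comparisons, as without it, beside 21.5%, 22.1% and 0% of all genes. Between OSM-ESCs and LIF-ESCs, 0 instead of 15 of all genes were called.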

Other observations

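The tested genes whose profiles over the 6 libraries lay closest to each of the 7 genes were found by the distance between log2(TPM + 1) values centred on each gene's mean. They were Gpt2 and Neat1 for Dppa2 (distances 0.10 and 0.11), Dynlt1b and Gtf2e2 for Dppa3 (0.08 and 0.11), Gtf3c2 and Rfxank for Dppa4 (0.06 and 0.07) and Sec23b and Rabl6 for Dppa5a (0.03 and 0.04). For Fbxo15 they were Piga and Brca1 (0.05 and 0.06), for Tdh they were Ccnl2 and Polr1a (0.03 and 0.04), and for Pecam1 they were Pif1 and Klhl24 (0.07 and 0.09). The 6 libraries share 3 media and are no independent points.

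On one side of Tdh lie Fam167a, which fell (log2 fold changes -0.48 and -0.71, adjusted p = 0.033 and 0.00836), and farther off Gata4, an endoderm factor, which rose from a mean of 0.931 TPM in -LIF-ESCs to 6.73 TPM in LIF-ESCs and 4.71 TPM in OSM-ESCs (log2 fold changes 2.01 and 1.58, adjusted p = 0.000169 and 0.000414 by limma). Mtmr9, on the other side of Tdh, did not pass on the deposited scale (adjusted p = 0.122 and 0.835). It was lower with LIF after rescaling (-0.35, adjusted p = 0.0158) and in voom (-0.30, adjusted p = 0.000125), and lower with OSM in voom (-0.15, adjusted p = 0.0299). Around Pecam1, Tex2 (-0.83 and -0.90), Milr1 (-0.64 and -0.79) and Polg2 (-1.05 and -1.25) fell in both comparisons, against the direction of Pecam1. Next to Fbxo15, Cyb5a fell (-0.64 and -0.60) and Cndp2 rose (0.61 and 0.64). Timm21, which overlaps Fbxo15, rose with LIF (0.29, adjusted p = 0.016, and adjusted p = 0.146 after rescaling) and was at 0.20 with OSM (adjusted p = 0.0572). Farther away, Rttn (0.52 and 0.48) on the other side of Fbxo15 and Nectin3 (0.44 and 0.42) beyond Dppa4 rose, and Socs6 did not pass. The gene models Gm7204, Gm15918 and Gm22711 near Dppa4, Tdh and Pecam1 did not pass in either comparison on the deposited scale, although Gm15918 passed with OSM in voom (1.44, adjusted p = 0.0253).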
